A study of Mus musculus with 28 samples.

Results

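The 5 genes described here make, store, recapture and break down monoamine transmitters. They are *Th*, *Ddc*, *Slc18a2*, *Slc6a3* and *Maoa*. They were chosen by symbol, with earlier results of these data known, and matched to the Ensembl identifiers of the count tables. All 5 were found among the 29878 genes listed, and all 5 were among the 14979 genes tested, which had more than 1 CPM (counts scaled to a common library size) in at least 2 of 28 libraries.

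RNA-seq was performed on dorsal striatum, ventral striatum, hypothalamus and motor cortex of adult male mice, 2–3 months old, on a C57Bl/6 background. The mice were wild-type (WT), heterozygous or knockout (KO) for *Hdc*, the gene for the enzyme that makes histamine. No treatment is named in the labels. KO mice gave 2 libraries of every region. Heterozygous mice gave 2 of motor cortex and 3 of each other region, and WT mice gave 3 of hypothalamus, 3 of ventral striatum, 2 of dorsal striatum and 1 of motor cortex. Libraries are named below by genotype and replicate number, and genotypes are given as labelled. Libraries held 3536802 to 5150280 counts on genes.

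*Hdc* itself was not lost from the KO libraries. Outside the hypothalamus it had 0 to 6 counts in WT libraries, 17 to 33 in heterozygous and 29 to 51 in KO libraries, so WT lay below both other groups, which overlapped. In the hypothalamus *Hdc* was at 15.3 to 19.1 CPM in WT, 14.6 to 21.8 in heterozygous and 11.7 to 14.2 in KO libraries. The counts cover the whole gene and do not show which exons carried reads, so they do not check whether the targeted part was missing.

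Dopamine is made from tyrosine by tyrosine hydroxylase, the product of *Th*, followed by aromatic L-amino acid decarboxylase, the product of *Ddc*, which also acts in serotonin synthesis. The vesicular monoamine transporter encoded by *Slc18a2* loads dopamine, serotonin, noradrenaline and histamine into synaptic vesicles. The dopamine transporter encoded by *Slc6a3* takes dopamine back up from outside the cell, and monoamine oxidase A, encoded by *Maoa* on the X chromosome, oxidises monoamines on the outer mitochondrial membrane. Most dopamine neurons that project to the striatum have their cell bodies, and hence most of their mRNA, in the midbrain, and separate groups of dopamine neurons lie within the hypothalamus.

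On GRCm38, *Th* (ENSMUSG00000000214) lies on chromosome 7 from 142892752 to 142931128 on the minus strand, and *Ddc* (ENSMUSG00000020182) on chromosome 11 from 11814101 to 11898144 on the minus strand. *Slc18a2* (ENSMUSG00000025094) lies on chromosome 19 from 59260896 to 59296012, *Slc6a3* (ENSMUSG00000021609) on chromosome 13 from 73536747 to 73578672, and *Maoa* (ENSMUSG00000025037) on chromosome X from 16619698 to 16687818, all on the plus strand. *Slc18a2* shared 111 of its 5225 exon bases with a gene on the opposite strand. The other 4 genes shared no exon base with another annotated gene.

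Promoter sequence from RefSeq (GRCm38.p6, 250 bases before to 50 after the start) was found for all 5 genes. It is shown here for *Th* and *Slc18a2*, which hold the same element, and for *Slc6a3*, whose level varied most. The cAMP response element TGACGTCA was found in the windows of *Th* and *Slc18a2* and in 588 of 32851 promoters (1.79%), on either strand. It began 45 bases before the start of *Th* and 4 bases before that of *Slc18a2*, and is in capitals in these 28-base stretches at chr7:142900023-142900050 (minus strand) and chr19:59260864-59260891 (plus strand).
Th: agaggggcttTGACGTCAgcctggcctt
Slc18a2: gcgctgtccgTGACGTCAgagccggact

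The window of *Slc6a3* held no such element and 3 copies of the GC box GGGCGG, searched on both strands, a motif found in 35.7% of all promoters. The windows of *Th* and *Slc18a2* held 1 and 2 GC boxes. Those of *Slc6a3* are in capitals in the 250 bases before its start, chr13:73536497-73536746 on the plus strand. The letters are a description of sequence, and binding was not measured.
Slc6a3: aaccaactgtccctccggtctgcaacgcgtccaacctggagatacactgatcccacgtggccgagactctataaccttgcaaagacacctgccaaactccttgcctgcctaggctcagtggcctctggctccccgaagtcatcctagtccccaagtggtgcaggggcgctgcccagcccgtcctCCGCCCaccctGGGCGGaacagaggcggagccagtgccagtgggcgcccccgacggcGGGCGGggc

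*Maoa* held 2 GC boxes and no cAMP response element in its window. The first of the 2 annotated *Ddc* promoters held a TATA box (TATAAA, 13.6% of promoters) and the element AAAGGTCA (1.51% of promoters), which orphan nuclear receptors of the NR4A family can bind.

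The labelled regions were checked against marker genes. The summed level of 10 spiny neuron markers was 8720 to 12100 CPM in dorsal striatum, 2000 to 4730 in ventral striatum and at most 550 elsewhere, and 10 hypothalamic markers summed to 191 to 338 CPM in hypothalamus and at most 15.9 elsewhere. The hypothalamic libraries also held thalamic markers, of which 6 summed to 471 to 847 CPM, against 47.0 to 208 in ventral striatum, 23.6 to 49.1 in dorsal striatum and 43.0 to 54.5 in motor cortex, and their part in the results was not tested. The 10 cortical markers summed to 2570 to 2750 CPM in motor cortex. Among libraries of other regions they were highest in hypothalamus KO 8 (685 CPM) and dorsal striatum KO 7 (558 CPM), against 203 to 401 CPM in the others. Dorsal striatum KO 8 carried choroid plexus RNA, with *Ttr* at 2710 CPM against at most 61.8 in every other library. In bulk tissue, fewer cells of a type and less RNA per cell cannot be told apart.

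All 5 genes were highest in the hypothalamus and were called higher there than in each other region. The log2 fold changes ran from 0.66 to 0.93 for *Maoa*, and for *Slc6a3* the pooled counts were 55.8 to 252 times higher. Differences between regions were read from edgeR's likelihood ratio test with Benjamini-Hochberg adjustment over all genes tested, at an adjusted p under 0.05. Among all genes, 30.7% were called higher and 25.5% lower in hypothalamus than in dorsal striatum. The corresponding shares were 23.9% and 19.7% against ventral striatum, and 25.4% and 22.9% against motor cortex. The median log2 fold change of the 5 genes was 2.66 over dorsal striatum, 2.06 over ventral striatum and 4.10 over motor cortex, beside medians of 0.04, 0.03 and 0.05 over all genes. Each of these calls of the 5 genes was kept when any 1 library was left out.

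**Figure D1:**
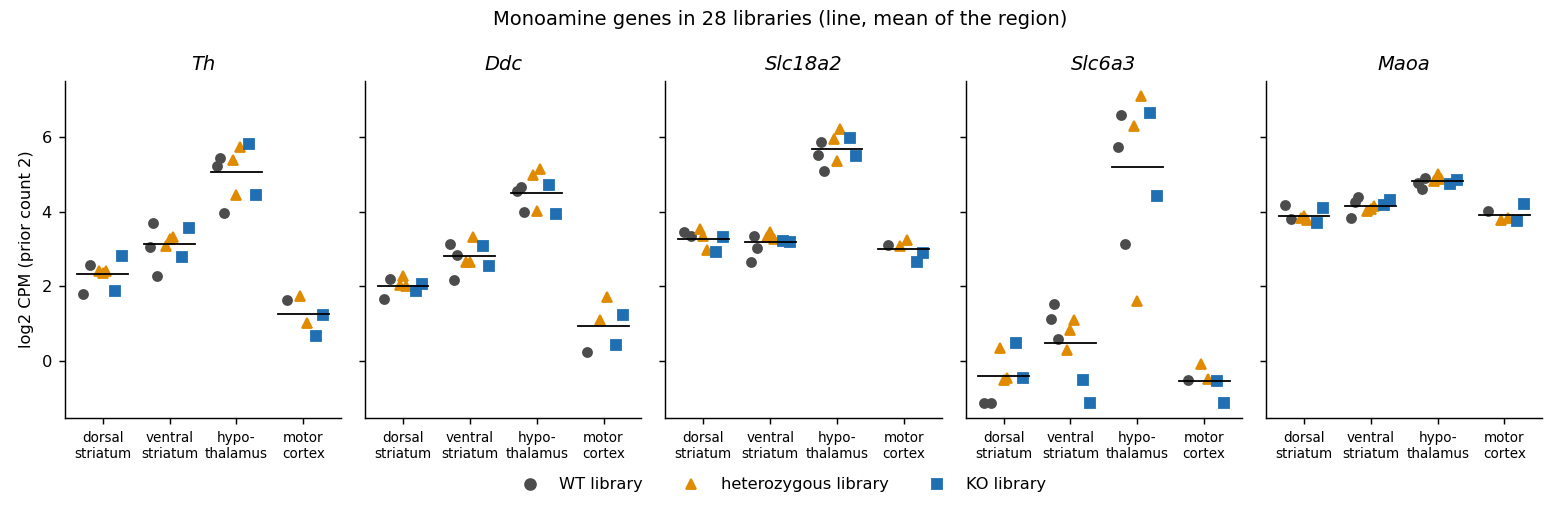
Level of each of the 5 genes in every library, as log2 CPM with a prior count of 2, by region and genotype. Symbols are single libraries and the line is the mean of the region. Every hypothalamic library of *Th*, *Ddc*, *Slc18a2* and *Maoa* lies above every library of the other regions, and *Slc6a3* spreads over the widest range within the hypothalamus.

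*Th* ranged over the hypothalamic libraries from 15.2 to 55.7 CPM, with a median of 39.1. In ventral striatum it had 4.36 to 12.7 CPM (median 8.57), in dorsal striatum 3.00 to 6.56 CPM (median 4.89) and in motor cortex 1.12 to 2.90 CPM (median 1.89). The hypothalamus did not overlap any other region, while the ranges of ventral and dorsal striatum overlapped. The log2 fold change of hypothalamus was 2.95 over dorsal striatum (SE 0.27, edgeR adjusted p = 2.55e-25), 2.06 over ventral striatum (SE 0.24, 2.01e-15) and 4.11 over motor cortex (SE 0.35, 2.99e-26). 

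*Ddc* followed the same order at lower levels. It had 15.0 to 34.7 CPM in hypothalamus (median 24.1), 4.04 to 9.58 in ventral striatum (median 6.28), 2.70 to 4.41 in dorsal striatum (median 3.67) and 0.721 to 2.83 in motor cortex (median 1.69). Motor cortex libraries held only 3 to 11 *Ddc* counts each, so its level there is known roughly. Hypothalamus was above dorsal striatum by a log2 fold change of 2.66 (SE 0.23, edgeR adjusted p = 7.38e-32), above ventral striatum by 1.76 (SE 0.20, 2.88e-18) and above motor cortex by 4.10 (SE 0.38, 6.49e-37).

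The 2 synthesis enzymes were the members called in every comparison among the other 3 regions. Ventral over dorsal striatum, the log2 fold change was 0.90 for *Th* (SE 0.28, edgeR adjusted p = 0.00636) and 0.90 for *Ddc* (SE 0.24, adjusted p = 0.00116). Motor cortex over dorsal striatum gave a log2 fold change of -1.16 for *Th* (SE 0.38, edgeR adjusted p = 0.00537) and -1.44 for *Ddc* (SE 0.41, adjusted p = 0.000452). Against ventral striatum the log2 fold change of motor cortex was -2.06 for *Th* (SE 0.36, adjusted p = 6.00e-08) and -2.33 for *Ddc* (SE 0.39, adjusted p = 5.20e-11). Of all genes, 14.4% were called higher in ventral than in dorsal striatum, 21.4% lower in motor cortex than in dorsal striatum and 22.2% lower in motor cortex than in ventral striatum. 

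Some of these smaller differences were lost under other settings, for *Ddc* as well as *Th*. By the quasi-likelihood test of edgeR, *Th* had an adjusted p of 0.0549 for ventral over dorsal striatum and 0.0779 for motor cortex over dorsal striatum. Without ventral striatum KO 8, the adjusted p of *Th* for ventral over dorsal striatum was 0.0521.

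*Slc18a2* was high in hypothalamus and at similar levels in the other 3 regions. It had 33.5 to 74.4 CPM in hypothalamus (median 52.1), 7.14 to 11.2 in dorsal striatum (median 9.75), 5.77 to 10.5 in ventral striatum (median 8.92) and 5.82 to 9.0 in motor cortex (median 7.97). The lowest hypothalamic library was far above the highest library elsewhere. The log2 fold change of hypothalamus was 2.50 over dorsal striatum (SE 0.16, edgeR adjusted p = 8.09e-55), 2.60 over ventral striatum (SE 0.15, 2.03e-63) and 2.78 over motor cortex (SE 0.19, 2.18e-45). 

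Between the other regions no difference of *Slc18a2* was called. Ventral over dorsal striatum, its log2 fold change was -0.10 with a 95% interval from -0.45 to 0.25. That of motor cortex was -0.28 over dorsal striatum (interval -0.69 to 0.13) and -0.18 over ventral striatum (interval -0.59 to 0.22).

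*Maoa* had the narrowest range of the 5. It had 23.9 to 31.8 CPM in hypothalamus (median 28.1), 13.8 to 20.5 in ventral striatum (median 17.5), 12.4 to 17.7 in dorsal striatum (median 13.7) and 13.0 to 18.1 in motor cortex (median 13.6). Within any region its highest library was at most 1.48 times its lowest. Hypothalamus was above dorsal striatum by a log2 fold change of 0.93 (SE 0.10, edgeR adjusted p = 1.49e-19), above ventral striatum by 0.66 (SE 0.094, 1.49e-11) and above motor cortex by 0.90 (SE 0.12, 2.49e-14). Ventral over dorsal striatum, the value was 0.27 (SE 0.11, adjusted p = 0.0474). This call was lost with edgeR's quasi-likelihood test (adjusted p = 0.0532), with DESeq2 (0.139), and when any of 10 of the 15 libraries was left out, with adjusted p-values of 0.0549 to 0.225. Motor cortex and dorsal striatum differed by a log2 fold change of 0.03 (interval -0.23 to 0.29).

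*Slc6a3* was close to undetected outside the hypothalamus. It had 272, 565 and 46 counts in hypothalamus WT 1, 2 and 3, 425, 14 and 700 in heterozygous 4, 5 and 6, and 459 and 98 in KO 7 and 8. The 7 dorsal striatal libraries had 0 to 4 counts, the 8 ventral striatal libraries 0 to 9, and the 5 motor cortex libraries 0 to 2. Even the lowest hypothalamic library, heterozygous 5, had more counts than any library of another region.

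Because *Slc6a3* counts outside the hypothalamus were low, and 0 in all WT dorsal striatal libraries, regions were compared by pooled counts scaled to library size. The hypothalamus held 2579 counts against 11 in dorsal striatum, a ratio of 160 (95% interval 89.5 to 322), 36 in ventral striatum, a ratio of 55.8 (40.2 to 79.9), and 5 in motor cortex, a ratio of 252 (108 to 776). These intervals cover counting error only, and the hypothalamic libraries themselves differed up to 52.3-fold. edgeR called all 3 differences (adjusted p = 9.88e-25, 4.48e-21 and 8.13e-15). Ventral over dorsal striatum, the ratio was 2.87 (1.43 to 6.26) by counting error, and edgeR's test did not call it (adjusted p = 0.174).

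Levels of different genes were compared as mean CPM per kilobase of exon. In hypothalamus *Slc6a3* had the highest mean of the 5 (18), followed by *Th* (15.2), *Slc18a2* (10.1), *Maoa* (6.70) and *Ddc* (5.21). In dorsal striatum the order was *Maoa* (3.49), *Th* (1.97), *Slc18a2* (1.78), *Ddc* (0.810) and *Slc6a3* (0.104). The mean rank of *Slc6a3* in hypothalamus did not hold in every library. Per kilobase it was the highest of the 5 in 4 of 8 libraries, below *Th* in WT 1, fourth-ranked in KO 8, and the lowest in WT 3 (2.38) and heterozygous 5 (0.755).

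Within the hypothalamus *Slc6a3* varied far more between libraries than between genotypes. In CPM it was lowest in heterozygous 5 (2.61), followed by WT 3 (8.24), KO 8 (21.1), WT 1 (52.7), heterozygous 4 (78.7), WT 2 (97.3), KO 7 (99.5) and heterozygous 6 (136). Each genotype therefore had a library among the lowest 3 and at least 1 above 90 CPM. The highest library was 52.3 times the lowest for *Slc6a3*, against 3.66 times for *Th*, 2.31 for *Ddc*, 2.22 for *Slc18a2* and 1.33 for *Maoa*.

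*Th*, *Ddc* and *Slc18a2* rose with *Slc6a3* across these 8 libraries, which carry 8 different replicate numbers, and *Maoa* did not. On log2 CPM, Pearson's r with *Slc6a3* was 0.887 for *Th* (exact permutation p = 0.00516, adjusted p over the 4 relations 0.00688), 0.872 for *Ddc* (exact p = 0.00409, adjusted 0.00688) and 0.856 for *Slc18a2* (exact p = 0.00461, adjusted 0.00688). Spearman's rho was 0.952 for *Th* (exact permutation p = 0.00114, adjusted 0.00228), 0.833 for *Ddc* (exact p = 0.0154, adjusted 0.0205) and 0.952 for *Slc18a2* (exact p = 0.00114, adjusted 0.00228). All tests were two-sided. They were chosen with earlier results of these data known, and the adjustment covers only the 4 relations to *Slc6a3*. Without WT 3 and heterozygous 5, the libraries farthest from the median of *Slc6a3*, r over the other 6 was 0.966, 0.920 and 0.895. After each genotype's mean was subtracted, r was 0.917, 0.981 and 0.964.

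For *Maoa* r was -0.727 (exact permutation p = 0.0384, adjusted 0.0384) and rho -0.595 (exact p = 0.132). Without WT 3 and heterozygous 5, r was -0.217, so the relation over all 8 libraries rested on those 2. After each genotype's mean was subtracted, r was -0.856 over the 8 libraries. 

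**Figure D2:**
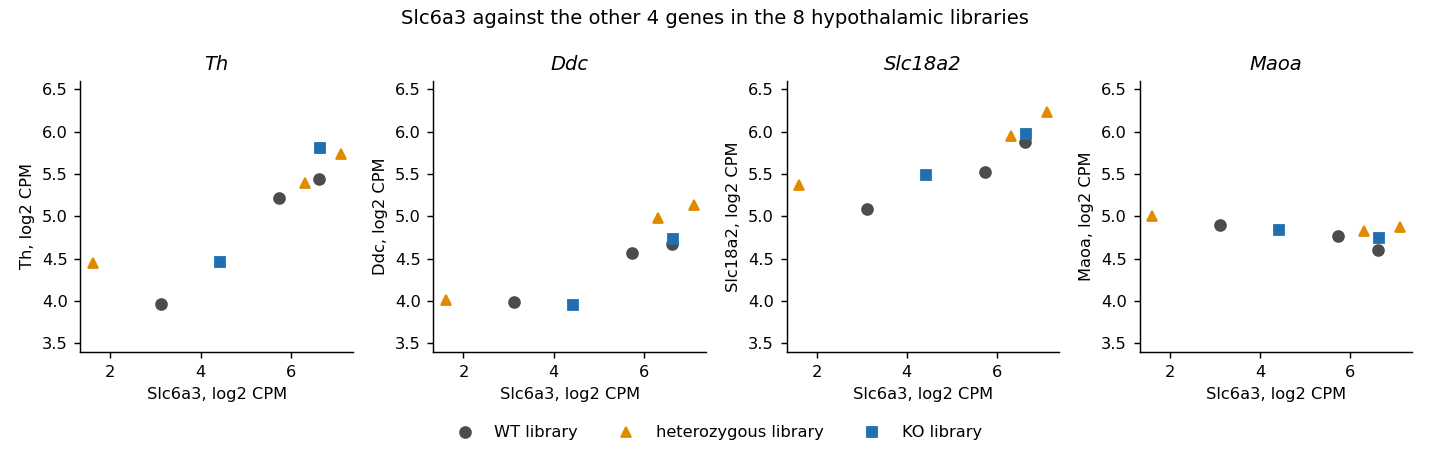
Level of *Th*, *Ddc*, *Slc18a2* and *Maoa* against that of *Slc6a3* in the 8 hypothalamic libraries, each as log2 CPM with a prior count of 2. Each symbol is a library. *Th*, *Ddc* and *Slc18a2* rise with *Slc6a3* in libraries of all 3 genotypes, and *Maoa* stays within 23.9 to 31.8 CPM.

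Along *Slc6a3*, *Th* did not reach 0. A straight line through the 8 libraries gave 29.5 CPM more *Th* for each 100 CPM of *Slc6a3*, from 17.7 CPM where *Slc6a3* would be 0. For *Slc18a2* the line rose by 26.9 CPM from 36.1 CPM, and for *Ddc* by 14.2 CPM from 14.5 CPM. The lines describe these libraries, and their starting levels are above the highest striatal library of each gene.

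Some markers of midbrain dopamine neurons moved with these genes in the hypothalamic libraries. Of 14 such markers, 13 had more than 3 counts in at least 1 hypothalamic library, and their summed level was 106 to 204 CPM. The sum was 106, 114 and 117 CPM in WT 3, heterozygous 5 and KO 8, the 3 libraries lowest in *Slc6a3*. In the other 5 it was 155 to 204 CPM. In dorsal striatum it was 36.0 to 109 CPM, highest in KO 7. It was 44.1 to 81.7 CPM in ventral striatum and 44.9 to 59.1 CPM in motor cortex. *En1*, a transcription factor of midbrain dopamine neurons, was at 0.186, 0.358 and 0.645 CPM in heterozygous 5, WT 3 and KO 8 and at 2.71 to 5.16 CPM in the others. Those 3 low values are at most 3 counts each, and *En1* had at most 30 counts in any library. The nicotinic receptor subunits *Chrna6* and *Chrnb3*, which these neurons express, spanned 1.68 to 14.0 and 0.931 to 11.1 CPM in nearly the same order. *Ret*, a receptor for the GDNF family of growth factors, ranged from 34.6 to 81.3 CPM.

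Other markers of the list did not follow that order. *Lmx1a* lay between 2.15 and 4.29 CPM, *Sox6* between 23.2 and 27.3 CPM and *Sncg* between 10.5 and 16.8 CPM. *Pitx3* had 0 to 2 counts in every hypothalamic library. On log2 CPM, r with *Slc6a3* was 0.0256 for *Lmx1a*, 0.365 for *Sox6*, -0.159 for *Sncg* and 0.422 for *Foxa1*. It was 0.596 for *Lmx1b*, 0.734 for *Nr4a2* and 0.857 for *Slc10a4*, against 0.921 to 0.983 for *Ret*, *En1*, *Chrna6* and *Chrnb3*. The 9 markers of serotonin and noradrenaline neurons summed to 4.07 to 7.58 CPM, with *Phox2a* at 0 in all 8 libraries. *Hdc* was highest in heterozygous 5 (21.8 CPM), the library with the least *Slc6a3*. *Hcrt*, the orexin gene of the lateral hypothalamus, was 76.9 CPM there and 44.0 CPM in heterozygous 6, the library with the most *Slc6a3*. Their r with *Slc6a3* was -0.802 for *Hcrt* and -0.59 for *Hdc*. It was -0.73 for *Pmch* and -0.578 to -0.375 for *Oxt*, *Avp*, *Trh*, *Otp* and *Sim1*. Without WT 3 and heterozygous 5, r was -0.922 for *Hcrt*, -0.719 for *Pmch* and -0.598 for *Avp*. For *Otp* it was then -0.0991, for *Hdc* 0.115, and for *Oxt*, *Trh* and *Sim1* 0.26, 0.215 and 0.18. For *Tcf7l2*, the only thalamic marker compared in this way, r was 0.424, and 0.823 without WT 3 and heterozygous 5. The part of midbrain, hypothalamic or thalamic tissue in these differences was not tested.

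**Figure D3:**
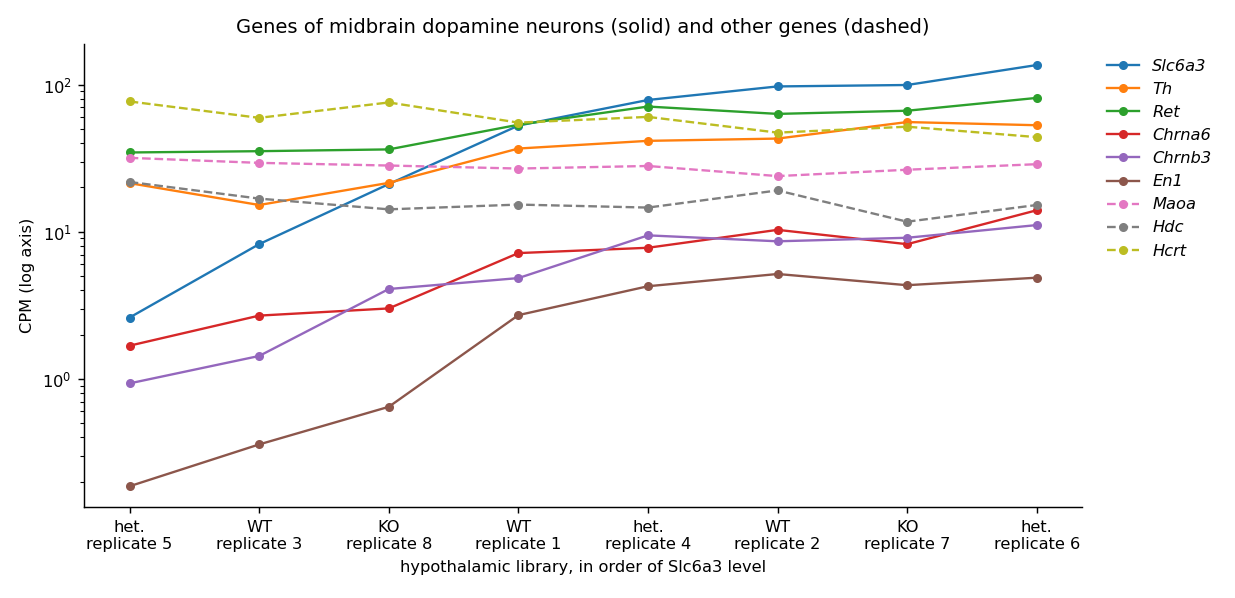
CPM on a log axis in the 8 hypothalamic libraries, placed in order of their *Slc6a3* level and labelled by genotype and replicate number. Solid lines are *Slc6a3*, *Th*, *Ret*, *Chrna6*, *Chrnb3* and *En1*, which midbrain dopamine neurons express. Dashed lines are *Maoa*, *Hdc* and *Hcrt*. Listed markers of these neurons that did not follow *Slc6a3*, such as *Lmx1a*, *Sox6* and *Sncg*, are not drawn. *En1* runs from 0.186 to 5.16 CPM and *Slc6a3* from 2.61 to 136 CPM, while *Maoa* runs from 23.9 to 31.8 CPM. In heterozygous 5, WT 3 and KO 8, *En1* had at most 3 counts.

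No member was called different between genotypes in any region. The comparison of KO or heterozygous with WT libraries, 8 comparisons of 5 genes, gave 0 calls in edgeR's likelihood ratio test, in its quasi-likelihood test and in DESeq2. Across all genes, KO versus WT called 0.387% in dorsal striatum, 0.0801% in ventral striatum, 0.167% in hypothalamus and 0.0334% in motor cortex. Heterozygous versus WT called 0.0868%, 0.0534%, 0.0935% and 0.0134% in the same order. Of the 40 tests of members, 3 had an unadjusted p under 0.05, and all were of *Slc6a3* where it had at most 9 counts per library. Over all genes, 3.71% to 7.95% had such a p, depending on the comparison.

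The hypothalamic mean of *Slc6a3* was 52.7 ± 44.5 CPM for WT (SD, n = 3), 72.6 ± 67.1 CPM for heterozygous (SD, n = 3) and 60.3 ± 55.4 CPM for KO libraries (SD, n = 2). Its log2 fold change of KO over WT was 0.19 with a 95% interval from -1.44 to 1.83. Leaving out single libraries moved this value between -1.35 (without KO 7) and 0.98. That of *Th* was 31.7 ± 14.6 CPM for WT (SD, n = 3), 38.6 ± 16.0 CPM for heterozygous (SD, n = 3) and 38.6 ± 24.2 CPM for KO libraries (SD, n = 2), with a KO over WT log2 fold change of 0.28 (interval -0.52 to 1.09). Without KO 7 that value was -0.59. Without KO 8, the library with cortical markers, it was 0.92 for *Slc6a3* and 0.81 for *Th*.

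The narrower genes bounded the change more closely. The KO over WT log2 fold change in hypothalamus was 0.03 for *Maoa* (interval -0.27 to 0.33), 0.22 for *Slc18a2* (-0.23 to 0.68) and -0.05 for *Ddc* (-0.67 to 0.57). Heterozygous over WT, it was 0.15 for *Maoa* (-0.11 to 0.40), 0.36 for *Slc18a2* (-0.05 to 0.76) and 0.36 for *Ddc* (-0.19 to 0.90).

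In dorsal striatum *Th* had 10 and 24 counts in WT, 24, 19 and 18 in heterozygous and 14 and 25 in KO libraries, and the groups overlapped. The KO over WT log2 fold change there was 0.18 for *Th* (interval -0.91 to 1.27), 0.00 for *Ddc* (-0.99 to 0.98), -0.29 for *Slc18a2* (-0.95 to 0.37) and -0.09 for *Maoa* (-0.52 to 0.34). In dorsal striatum KO 8, the library with choroid plexus RNA, these genes were at 6.56, 3.67, 9.45 and 16.8 CPM, and without it the value was -0.41 for *Th* and -0.31 for *Maoa*. Without KO 7, the dorsal striatal library highest in cortical markers, it was 0.61 for *Th* and 0.12 for *Maoa*. In ventral striatum the values were 0.10 for *Th* (-0.80 to 1.00), 0.08 for *Ddc* (-0.68 to 0.84), 0.16 for *Slc18a2* (-0.46 to 0.78) and 0.05 for *Maoa* (-0.31 to 0.41). In motor cortex, where WT had a single library, KO over WT was -0.82 for *Th* (-2.40 to 0.76), -0.35 for *Slc18a2* (-1.20 to 0.49) and -0.05 for *Maoa* (-0.55 to 0.46).

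**Figure D4:**
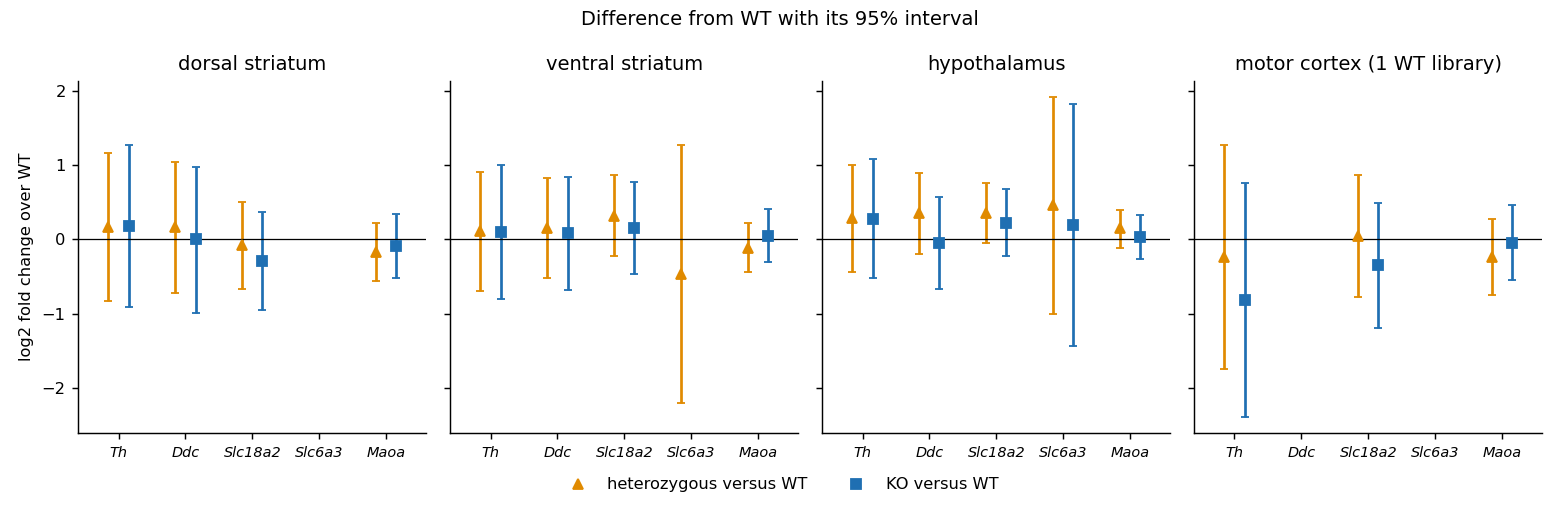
Log2 fold change over WT of each gene in heterozygous and KO libraries, by region. The 95% intervals were computed from the edgeR fit with its estimate of spread taken as known. Genes with at most 3 counts in every library of a compared group are left out, and the motor cortex had 1 WT library. Every interval drawn includes 0, and those of *Maoa* are the narrowest in each region.

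The few *Slc6a3* counts in striatum differed in direction between its parts. In ventral striatum there were 6, 9 and 4 counts in WT, 4, 5 and 7 in heterozygous and 1 and 0 in KO libraries, so the KO libraries lay below all others. WT over KO, the pooled ratio was 14.0 (95% interval 2.23 to 583 by counting error), and edgeR gave an unadjusted p of 0.00829 and an adjusted p of 0.697. In dorsal striatum there were 0 and 0 counts in WT, 4, 1 and 1 in heterozygous and 4 and 1 in KO libraries. These counts are too low for a fold, and the edgeR adjusted p of KO versus WT was 0.515. The difference between these 2 effects had an unadjusted p of 0.000817 and an adjusted p of 0.416, and no test of such a difference between regions called any member.

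Other genes of the monoamine pathway were read from lists of 11 synthesis and cofactor enzymes, 7 transporters, 8 breakdown enzymes and 5 dopamine receptors. Of the synthesis and cofactor list 7 were tested. Of these, 5 were higher and 1 lower in hypothalamus than in dorsal striatum, beside 30.7% and 25.5% of all genes. Several enzymes that make or recycle tetrahydrobiopterin, the cofactor of tyrosine hydroxylase, were among the 5. *Pts*, which also acts in its synthesis, was not called (log2 fold change 0.14, interval -0.22 to 0.50). The log2 fold change of hypothalamus over dorsal striatum was 4.02 for *Pcbd1* (SE 0.29, edgeR adjusted p = 1.10e-80), 2.15 for *Gch1* (SE 0.39, 9.94e-10), 0.66 for *Spr* (SE 0.094, 1.53e-11) and 0.39 for *Qdpr* (SE 0.11, 0.000919). *Gch1*, which encodes the first enzyme of that pathway, had 8 to 23 counts in hypothalamic libraries and 0 to 6 elsewhere. *Tph2*, the serotonin enzyme of raphe neurons, had at most 11 counts in any library and was lower in hypothalamus than in dorsal striatum (log2 fold change -1.75, SE 0.48, adjusted p = 0.000218).

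Of the 7 other transporters only 3 were tested, with 1 higher and 1 lower in hypothalamus than in dorsal striatum. Of all genes, 30.7% and 25.5% were called so. The noradrenaline transporter *Slc6a2* and the serotonin transporter *Slc6a4* had at most 3 and 4 counts in any library. *Slc29a4*, a low-affinity monoamine transporter, was at 15.2 to 19.9 CPM in hypothalamus, 6.06 to 15.9 in ventral striatum and 1.29 to 3.58 in motor cortex. In dorsal striatum it was at 2.04 to 8.44 CPM in 6 libraries and at 16.8 CPM in KO 8, the library with choroid plexus RNA. *Slc22a3*, an organic cation transporter, was highest in dorsal striatum, at 7.93 to 13.2 CPM against at most 3.23 CPM in any other library, and ventral over dorsal striatum its log2 fold change was -2.61 (SE 0.23, edgeR adjusted p = 2.15e-35).

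Of the 8 breakdown enzymes 7 were tested. Of these, 3 were higher and 0 lower in hypothalamus than in dorsal striatum, beside 30.7% and 25.5% of all genes. *Maob*, the partner of *Maoa*, had 35.7 to 46.0 CPM in hypothalamus and 13.5 to 23.4 CPM elsewhere, a log2 fold change of 1.02 over dorsal striatum (SE 0.092, edgeR adjusted p = 1.03e-28). *Aldh1a1*, an aldehyde dehydrogenase of many midbrain dopamine neurons, was at 23.7 CPM in WT 3 and 78.1 CPM in heterozygous 6 of the hypothalamus.

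Of the 5 dopamine receptors 4 were tested, and 3 were lower in hypothalamus than in dorsal striatum, beside 25.5% of all genes. *Drd1* was at 184 to 293 CPM in dorsal striatum against 1.38 to 4.77 CPM in hypothalamus, and *Drd2* at 502 to 735 against 23.3 to 45.8 CPM. These 2 receptor transcripts were highest in dorsal striatum, where *Th* and *Slc6a3* were low. Between genotypes, the members of these 4 lists that were called were *Hdc*, outside the hypothalamus, and *Spr*, higher in heterozygous than WT dorsal striatum (log2 fold change 0.73, SE 0.18, edgeR adjusted p = 0.0404). The call of *Spr* was lost with the quasi-likelihood test (adjusted p = 0.328), with DESeq2 (0.095), and without dorsal striatum WT 1 (0.811), heterozygous 4 (0.377) or heterozygous 6 (0.0726). It was also lost with dorsal striatal libraries only (0.16), with the replicate block (0.369), and without any of 5 libraries of other regions (0.0515 to 0.0576). These checks were chosen after its value was seen.

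**Figure D5:**
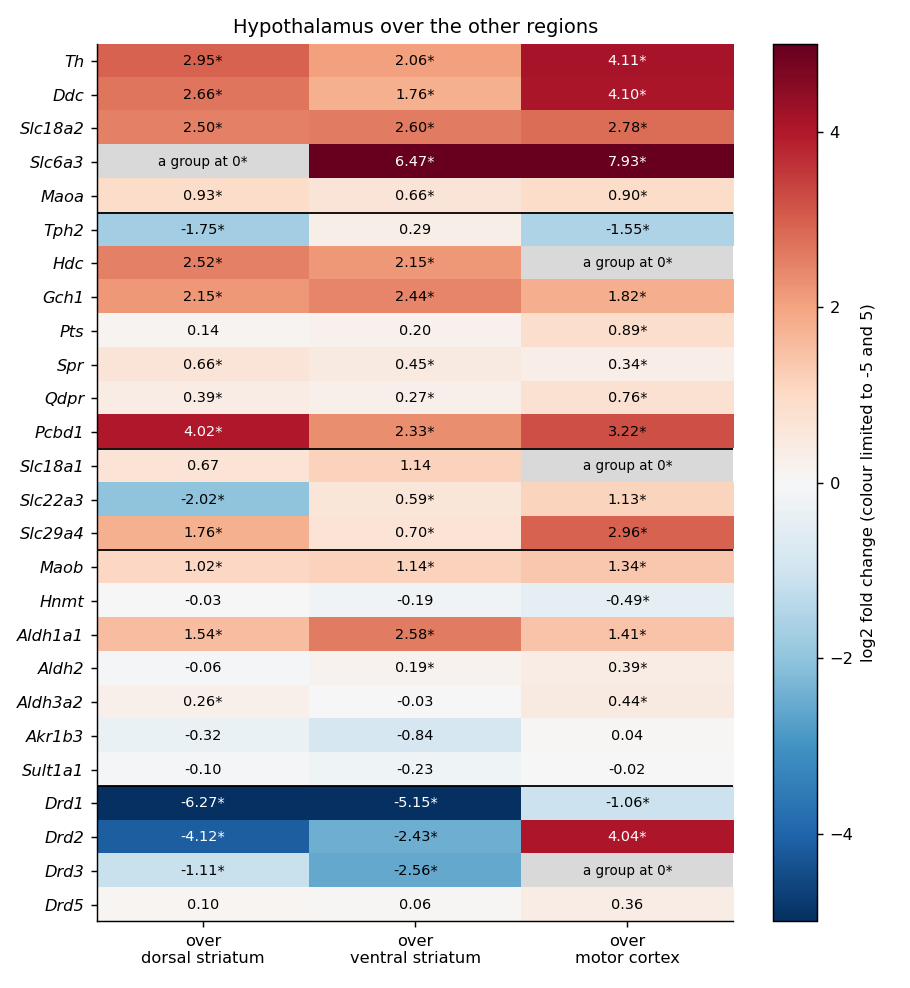
Log2 fold change of hypothalamus over each other region for the 5 genes and the tested genes of 4 pathway lists, separated by lines in the order synthesis and cofactor enzymes, transporters, breakdown enzymes and dopamine receptors. An asterisk marks an adjusted p under 0.05, and grey cells are comparisons in which a group had no counts. The 5 genes at the top are positive wherever a value is shown. The cell of *Slc6a3* over dorsal striatum is grey, and *Drd1* is negative in every column.

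The genes most like each member were sought by Pearson's r over the 28 libraries, which share regions, so that r mostly reflects regional pattern. For *Th* they were *Epb41l4a* (r = 0.936), *Slc6a9* (0.934) and *Ddc* (0.934). For *Ddc* they were *Amotl1* (0.959), *Scn9a* (0.956) and *Epb41l4a* (0.947). *Slc18a2* was nearest to *Foxa1* (0.970), *B230323A14Rik* (0.967) and *Hcrt* (0.964), and *Maoa* to *F2r* (0.939), *Alg2* (0.937) and *Canx* (0.933). *Slc6a3* was nearest to *Prkcd* (0.941), *Slc18a2* (0.919) and *Wnt9b* (0.917).

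After the mean of each group of region and genotype was subtracted, other genes came first. *Slc6a3* was nearest to *En1* (r = 0.875), *Chrna6* (0.860) and *Psat1* (0.849). *Slc18a2* was nearest to *Psen2* (0.850), *En1* (0.825) and *Chrna6* (0.811). For *Th* the first genes were *Pcsk7* (0.770), *Stk39* (0.754) and *Anapc4* (0.751), with *Slc18a2* at 0.665, *Slc6a3* at 0.661 and *Ddc* at 0.383. *Ddc* was nearest to *Clcn1* (0.825), *Rffl* (0.775) and *Pwp1* (0.768), with *Slc6a3* at 0.587, *Slc18a2* at 0.388 and *Th* at 0.383. For *Maoa* they were *Dnajb9* (0.816), *Dis3* (0.798) and *Sowahc* (0.797), with *Slc6a3* at -0.398. These values are descriptions over libraries of unequal group size.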

How the data were processed

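For every library the authors deposited unnormalized read counts by gene. Per the labels and the paper's methods, cDNA was made from 5 ng of RNA with a NuGEN Ovation kit and read as single-end 50-base reads. Reads were trimmed with Trimmomatic 0.32, ribosomal reads were removed with Bowtie2 2.2.3, and the rest were aligned to GRCm38 (Ensembl 75) with STAR 2.3.1z8 and counted over exons with HTSeq 0.6.1p1 in union mode, which leaves out reads that overlap more than 1 gene. SAMtools 0.1.19 is also named in the submitters' processing notes. Strand use is not given in the sources used here.

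Groups and replicate numbers came from the sample labels. The digit taken as replicate number is not explained, and whether libraries are from separate mice within a group is not stated beyond it, so p-values measure the spread between libraries. Symbols and positions were taken from GENCODE M21, which matched 28758 of 29878 identifiers. Tests used edgeR 4.0.16 under R 4.3.3 (glmFit and glmLRT as in the paper, TMM scaling, limma 3.58.1 for the voom fits) in a model with a mean for each of 12 groups, after removing genes not above 1 CPM in at least 2 libraries. A region was the equally weighted mean of its 3 genotype means. The adjusted p was taken over all 14979 genes and called under 0.05. CPM used TMM-scaled library sizes, log2 CPM a prior count of 2, and the floor was 3 counts. Intervals on pooled counts are exact binomial (Clopper-Pearson) and cover counting error only. Alternatives were the quasi-likelihood test, DESeq2 1.42.0, scaling by total count, no filter, other sets of libraries and a replicate block. The block was random in a voom fit, and for comparisons of regions it was also fixed in edgeR. The fit was tested on simulated data.

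The rule for genes named covered the 5 members, the genes of the pathway lists, and for each member the 3 genes with the highest Pearson correlation over the 28 libraries and the 3 with the highest correlation of deviations from group means. Marker genes were taken from lists of cell types and regions. The members, lists and tests were chosen with earlier results of these data known. Same-group libraries differed by 1.78 to 13.3 chi-square per degree of freedom over 21 pairs, so none was counted as a duplicate. Depth was 3536802 to 5150280 counts per library.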

Additional observations from a re-analysis of the deposited data

How the results depend on the processing

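The higher level of all 5 genes in hypothalamus kept its direction under every alternative, and its call under every alternative except for *Slc6a3* over motor cortex in the voom fit with a replicate block (log2 fold change 6.73, adjusted p = 0.104). No alternative called a member between genotypes. The single WT motor cortex library could not be left out of the genotype comparisons of that region. Low counts limit *Slc6a3* outside the hypothalamus and *Th* and *Ddc* in motor cortex.

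Of the 3 members called between ventral and dorsal striatum, 1 was called with the quasi-likelihood test and 1 with the random replicate block in voom. In WT libraries alone 1 was called, and 0 in heterozygous or KO libraries alone, where fewer samples enter. Of all 14979 genes, these settings called 4113, 4056, 2324, 2155 and 1755 in the same order, in either direction. Leaving out single libraries gave 1 to 3 members. Of the 2 called between motor cortex and dorsal striatum, 1 was called with the quasi-likelihood test and 0 with the random replicate block in voom. In heterozygous libraries alone 0 were called, and in KO libraries alone 1. Of all 14979 genes, these settings called 6285, 6154, 4469 and 3831 in either direction. In WT libraries alone, with 1 of motor cortex, the log2 fold change of *Th* was -0.69. Of the member calls between regions, a fixed replicate block in edgeR lost only that of *Maoa* between ventral and dorsal striatum (adjusted p = 0.0811). Between motor cortex and ventral striatum, the log2 fold change of *Th* was -1.63 in WT libraries alone, against -2.06 with all genotypes. *Maoa* between those regions was called without motor cortex KO 8 (adjusted p = 0.0342 by edgeR) or ventral striatum WT 1 (0.0429). Other causes were not tested.

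Scaling by total count alone moved the all-gene median log2 fold change to 0.28 for KO and 0.20 for heterozygous over WT in dorsal striatum, and to 0.41, 0.24 and 0.28 for hypothalamus over dorsal striatum, ventral striatum and motor cortex. With that scaling these uncalled log2 fold changes turned direction: in dorsal striatum *Ddc* KO 0.27, *Maoa* KO 0.20, *Maoa* heterozygous 0.02 and *Slc18a2* heterozygous 0.11, in hypothalamus *Maoa* KO -0.06, in motor cortex *Maoa* KO 0.04, and *Slc18a2* between ventral and dorsal striatum 0.05. Without the filter *Maoa* KO in hypothalamus was -0.0044. *Slc18a2* between ventral and dorsal striatum was 0.02 in heterozygous and 0.07 in KO libraries alone, *Maoa* between motor cortex and dorsal striatum -0.03 in heterozygous libraries alone, and *Slc18a2* between motor cortex and ventral striatum 0.08 in WT libraries alone.

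Leaving out single libraries turned other uncalled values. KO over WT, the ranges in dorsal striatum were -0.41 to 0.69 for *Th*, -0.24 to 0.35 for *Ddc* and -0.31 to 0.12 for *Maoa*. In ventral striatum they were -0.37 to 0.55 for *Th*, -0.25 to 0.34 for *Ddc*, -0.0017 to 0.36 for *Slc18a2* and -0.09 to 0.17 for *Maoa*. In hypothalamus they were -0.59 to 0.81 for *Th*, -0.53 to 0.29 for *Ddc*, -0.08 to 0.45 for *Slc18a2*, -1.35 to 0.98 for *Slc6a3* and -0.07 to 0.09 for *Maoa*, and in motor cortex -0.28 to 0.19 for *Maoa*. Heterozygous over WT, they were -0.17 to 0.68 for *Th*, -0.07 to 0.52 for *Ddc*, -0.23 to 0.06 for *Slc18a2* and -0.36 to 0.02 for *Maoa* in dorsal striatum. They were -0.20 to 0.55 for *Th*, -0.12 to 0.39 for *Ddc* and -0.25 to 0.01 for *Maoa* in ventral striatum, and -0.04 to 0.58 for *Th* and -0.37 to 1.25 for *Slc6a3* in hypothalamus. In motor cortex they were -0.77 to 0.13 for *Th* and -0.04 to 0.14 for *Slc18a2*. *Maoa* between motor cortex and dorsal striatum ranged from -0.05 to 0.11.

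Libraries with the same replicate number did not deviate together. The mean correlation of deviations from group means was 0.00697 over 34 pairs with the same number (-0.0798 to 0.0856) and -0.00424 over 56 other pairs, and the consensus correlation of the random block was -0.0151. With the random replicate block, the adjusted p of *Th* was 0.162 between ventral and dorsal striatum and 0.219 between motor cortex and dorsal striatum, that of *Ddc* between the latter regions was 0.0557, and the uncalled log2 fold change of *Slc6a3* in heterozygous over WT hypothalamus was -0.20.

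The number of all genes called in KO over WT dorsal striatum was 58, against 12 with the quasi-likelihood test, 21 with DESeq2, 499 with scaling by total count and 5 with the replicate block. In ventral striatum the number was 12, against 4, 6, 12 and 3, in hypothalamus 25, against 4, 6, 16 and 4, and in motor cortex 5, against 3, 1, 3 and 2. With only the libraries of the region it was 50 in dorsal striatum, 10 in ventral striatum and 10 in hypothalamus.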
